A study of Mus musculus with 6 samples.

Results

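The messenger RNAs of 9 genes of cytokine signalling were examined in tumours of mice given luteolin or vehicle. They were 4 signal transducers and activators of transcription (Stat2, Stat3, Stat5a and Stat6), 2 Janus kinases (Jak2 and Jak3) and 3 feedback inhibitors (Socs1, Socs3 and Cish). They were taken from the deposited table by their symbols, 9 of the 21720 symbols it lists. All 9 passed the filter on low counts and were tested together with 14963 genes in all. For comparison, 9 further genes of the same families (Stat4, Stat5b, Jak1, Tyk2, Socs2, Socs4, Socs5, Socs6 and Socs7) were read from the same table.

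The tumours were grown under the skin of female BALB/c mice, aged 6 to 8 weeks, from H22 cells, a mouse hepatocellular carcinoma line kept in culture and recorded as wild type (WT). The control group was gavaged with the vehicle, 0.5% carboxymethyl cellulose sodium (CMC-Na). The luteolin group received 200 mg/kg luteolin, a plant flavonoid, in the same 0.2 mL volume. Dosing was daily over 21 days in both groups and began at a tumour volume near 50 mm3. Each group gave 3 RNA-seq libraries from whole tumour tissue, called here control 1 to 3 and luteolin 1 to 3. The labels do not state that each library is a separate mouse, so p-values measure the spread between these libraries. H22 is 1 cell line in a host with its own immune cells, placed under the skin and not in the liver. Since the tissue was not sorted, fewer cells of a type and less RNA per cell cannot be told apart in any value given here.

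Cytokines such as interferons, interleukins and growth hormone bind receptors that carry Janus kinases (JAKs) on their inner side. The kinases phosphorylate STAT proteins, which pair, enter the nucleus and switch on target genes. Among these targets are the suppressors of cytokine signalling (SOCS proteins and CISH), which return to block the receptor and its kinases, so their messenger RNA is often read as a trace of recent signalling. Much of STAT activity is set by phosphorylation, which RNA-seq does not measure.

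Total counts were 69391357, 66256017 and 66655030 in control 1, 2 and 3 and 61081637, 80442954 and 63965501 in luteolin 1, 2 and 3. Luteolin 2 was thus the deepest library, and 16767 genes had a count above 0 in it, against 15579 to 16012 in the others. It also stood apart in its values. The correlation of log2 CPM (counts scaled to a common library total) across genes was 0.925 and 0.892 between luteolin 2 and the other luteolin libraries. It was 0.965 between luteolin 1 and 3 and between 0.952 and 0.969 within the control group. Fold changes of the 9 genes are therefore given with and without it. The hepatocyte and hepatoma markers did not all follow the label of the cell line. Afp, the fetal liver protein that many hepatomas make, had 59.4, 66.7 and 43.4 CPM in the control group and 32.6, 41.5 and 38.8 in the luteolin group, whereas the liver factor Hnf4a had counts of 0, 12 and 0 and of 20, 8 and 0. Albumin (Alb) varied widely within both groups, at 3.06, 60.3 and 0.868 CPM and at 132.5, 25.8 and 31.9 CPM. The other tested members of the list (Apoa1, Ttr and Apob) were under 4 CPM in every library.

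Of the 9 genes, 4 hold a sequence in the window from 250 bases before to 50 after the transcription start that has the letters of a classical STAT or interferon element. They are shown because these 4 include both genes with the largest differences between the groups, Socs3 and Socs1. The letters searched on both strands were TTCNNNGAA (the GAS element bound by STAT dimers), the same with a spacer of 4 bases (TTCNNNNGAA), and GAAANNGAAA with its reverse TTTCNNTTTC (the core of the interferon-stimulated response element, ISRE). In all 32851 RefSeq promoter sequences of this 300-base length these were found in 8.3%, 6.95% and 3.44%. The share with any of the 3 was not counted, so no share stands beside the 4 of 9. No link between the letters and the differences was tested. The stretches below come from RefSeq on GRCm38.p6 and read 5′ to 3′ on the strand of the gene, with the matches in capitals.
Stat2, chr10:128270256-128270317, plus strand: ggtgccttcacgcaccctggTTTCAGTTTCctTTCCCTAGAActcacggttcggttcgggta
Socs1, chr16:10785584-10785639, minus strand: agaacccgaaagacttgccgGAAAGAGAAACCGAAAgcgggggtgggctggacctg
Socs3, chr11:117969492-117969540, minus strand: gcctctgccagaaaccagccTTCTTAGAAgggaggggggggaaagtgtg
Cish, chr9:107296655-107296684, plus strand: agttTTCCTGGAAagTTCTTGGAAatctgt

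The Stat2 stretch holds an ISRE core 222 bases and a 4-base-spaced element 210 bases before the RefSeq start, from which all these positions are counted. The Socs1 stretch holds a pair of ISRE cores that overlap each other, and the Socs3 stretch holds a single GAS 154 bases before its start. Cish carries a pair of GAS letters just after its RefSeq start, in a gene known for tandem STAT5 sites. GENCODE places the outermost starts of Socs3 and Cish further upstream, so that both stretches lie inside those genes there, in an intron of a noncoding Socs3 transcript and in the 5′ untranslated region of Cish. The windows of Stat3, Stat5a, Stat6, Jak2 and Jak3 held none of these letters, which says nothing of sites elsewhere. Of the other family genes, 5 had a promoter sequence, and Stat4 alone among them had a match. A match of letters is a description and not a measured site of binding.

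Levels were compared between genes as TPM (transcript units scaled to a common total), which corrects a count for the length of the transcript and for the total of the library. In the control tumours Stat6, which carries interleukin 4 and 13 signals, was the most abundant of the 18 family genes at 170 ± 5.37 TPM (SD, n = 3). Next among the 9 genes came Jak2 at 40.2 ± 14.7, Socs3 at 39.2 ± 10.8 and Stat3 at 36.1 ± 2.74 TPM, whose libraries overlapped, so their order is not set. Stat2 at 24.4 ± 0.728 and Jak3 at 24.2 ± 5.44 TPM were likewise not separated. Jak3 and Cish (16.1 ± 4.64 TPM) overlapped in turn, as did Cish and Stat5a (13.1 ± 2.41 TPM). Socs1 was the lowest at 3.83 ± 1.77 TPM, with every control library under every one of Stat5a. In the luteolin group Stat6 was at 143 ± 9.68 TPM and Socs3 at 129 ± 50.1 TPM, and the libraries of these genes overlapped there. Socs3 took rank 2 of these 18 family genes in the luteolin group and rank 5 in the control group by mean TPM, and Socs1 was still under all other members by its mean, at 9.31 ± 4.3 TPM.

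**Figure D1:**
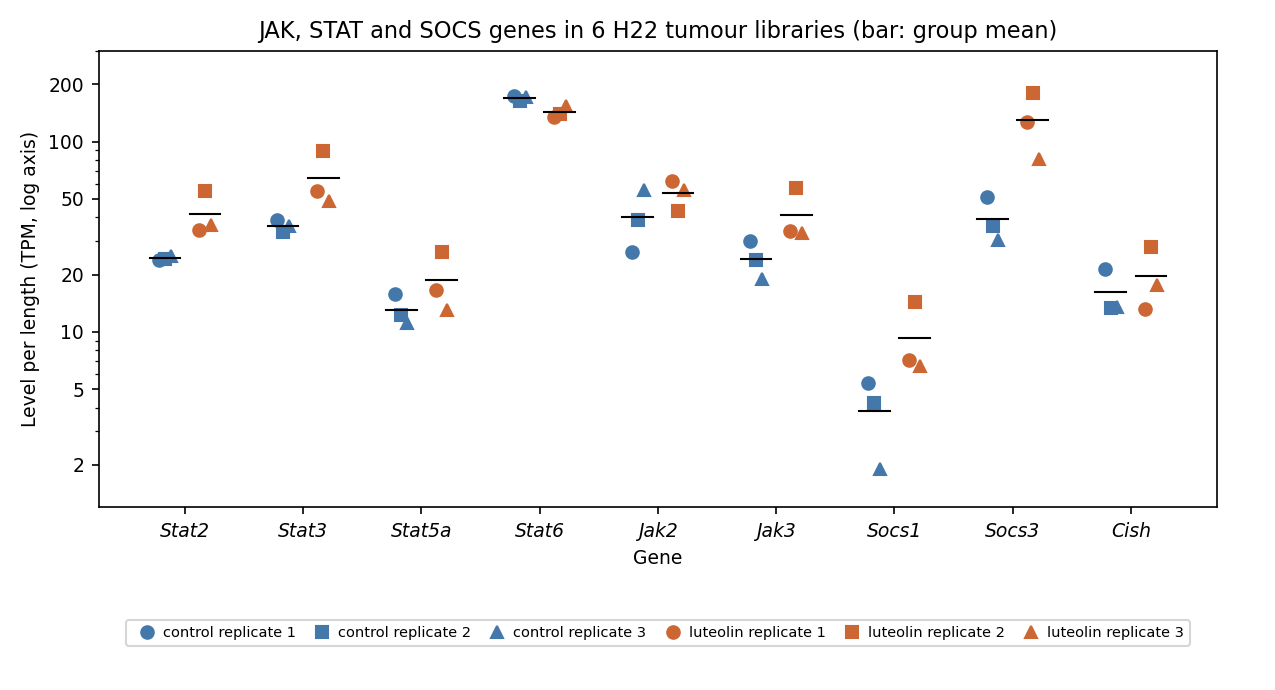
Level of each of the 9 genes in each library, in TPM on a log axis, with points for the 3 control and the 3 luteolin libraries and bars for the group means. The points of Socs3 run from 30.4 to 51.3 in the control group and from 80.7 to 181 in the luteolin group, and those of Stat6 lie lower in the luteolin group.

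In the comparison of luteolin with control tumours the log2 fold change was above 0 for 8 of the 9 genes and under 0 for Stat6, where 7383 of all 14963 tested genes were above 0. Groups overlapped for 3 of the 8 (Stat5a, Jak2 and Cish), and Cish was not above 0 without luteolin 2. The median log2 fold change of the 9 was 0.81, against -0.01 over all tested genes. It was 0.55 without luteolin 2 and 0.51 under limma's voom with quality weights. With an offset for GC content and length and without luteolin 2 it was also 0.51. None of the 9 passed an adjusted p under 0.05 (edgeR quasi-likelihood test, Benjamini-Hochberg over all tested genes), in either direction. At that threshold 1.34% of all tested genes were higher and 0.187% lower. An unadjusted p under 0.05 was reached by 5 of the 9, namely Stat2, Stat3, Jak3, Socs1 and Socs3, beside 20.5% of all tested genes. At the threshold used in the study, an unadjusted p under 0.05 with a fold change over 2, 2 of the 9 were higher (Socs1 and Socs3) and 0 lower, beside 11.3% of all tested genes higher and 1.52% lower. The groups did not overlap for 6 of the 9: all luteolin libraries lay above all control libraries for Stat2, Stat3, Jak3, Socs1 and Socs3 and below them for Stat6, where 15.8% of all tested genes lay above and 12.9% below in this way. DESeq2 called Stat2, Stat3 and Socs3 higher at an adjusted p under 0.05, as it did 9.58% of all genes with an adjusted p. limma's voom with quality weights called Stat2, Stat3, Jak2, Jak3 and Socs3 higher and Stat6 lower, and of all tested genes 12.6% higher and 8.76% lower.

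**Figure D2:**
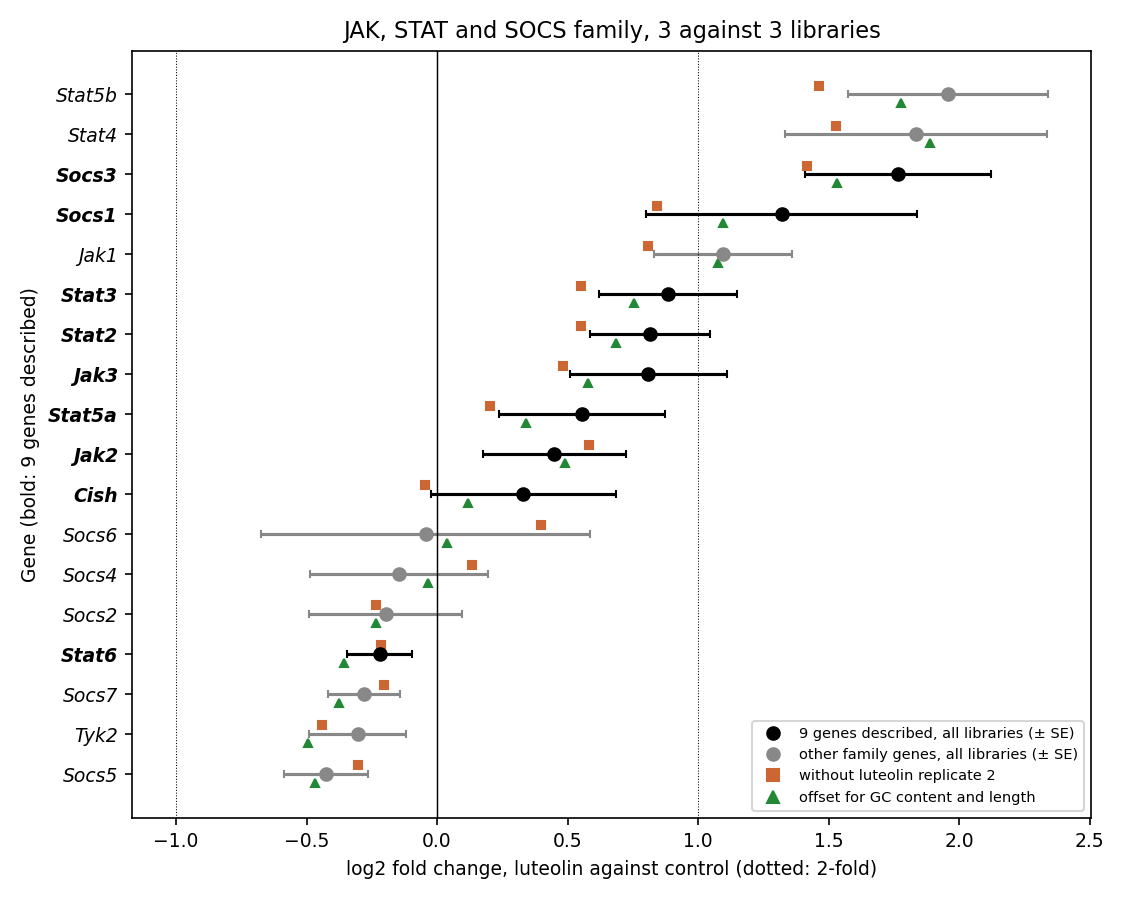
Log2 fold change of luteolin against control for the 18 family genes, with bars for the standard error of the edgeR fit (black, the 9 genes; grey, the other 9), squares for the fit without luteolin 2 and triangles for the fit with an offset for GC content and length. Socs3 has the largest value among the 9 genes at 1.76 and Stat6 is the single one of them under 0.

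Among the STATs, Stat3 (chr11:100885098-100939540, GRCm38) serves the interleukin 6 family, interleukin 10 and G-CSF. Its level was 38.9, 33.5 and 35.8 TPM in control 1, 2 and 3 and 55.1, 89.5 and 48.8 TPM in luteolin 1, 2 and 3. The control libraries lay close together, every luteolin library was above them, and luteolin 2 was far above the other luteolin libraries. The log2 fold change was 0.89 with a standard error of 0.26 (adjusted p = 0.1395, edgeR), and 0.551 without luteolin 2.

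Stat2 (chr10:128270559-128292849) belongs to the complex that answers type I interferon and binds ISRE letters such as those in its own upstream stretch shown above. It had 23.7, 24.3 and 25.2 TPM in the control group and 34.2, 54.7 and 36.2 TPM in the luteolin group. The control values lay close together, and again no luteolin library reached down to them. This was a log2 fold change of 0.82 with a standard error of 0.23 (adjusted p = 0.1246, edgeR), and 0.553 without luteolin 2.

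Stat5a, a transducer of interleukin 2, prolactin and GM-CSF signals, had 15.8, 12.2 and 11.2 TPM in the control group and 16.6, 26.2 and 13.1 TPM in the luteolin group. Luteolin 3 lay under control 1, so the groups overlapped, and only luteolin 2 was well above the rest. Its log2 fold change was 0.56, with a 95% interval from -0.19 to 1.31 that includes 0 (adjusted p = 0.382, edgeR), and it was 0.203 without luteolin 2. Reads near the shared end of Stat3 and Stat5a, which run towards each other on opposite strands and overlap at their ends, cannot be assigned with certainty where the counting did not use strand. In addition, 4.68% of the 150-base windows of Stat5a occur also in its neighbour Stat5b.

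Stat6 was the exception in direction. It had 174, 164 and 172 TPM in the control group and 135, 139 and 153 TPM in the luteolin group. Every luteolin library was lower, luteolin 2 was not apart from its group, and the difference was small, with a log2 fold change of -0.22 and a 95% interval from -0.52 to 0.08 (adjusted p = 0.3854, edgeR). It was -0.215 without luteolin 2. Stat6 overlaps Nab2 on the opposite strand.

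Both JAKs were higher on average in the luteolin group, with different spread. Jak3, the kinase of the common gamma chain and largely a lymphoid and myeloid gene, had 29.9, 23.7 and 19.1 TPM in the control group and 33.8, 56.8 and 33.1 TPM in the luteolin group. The luteolin libraries were all higher, although luteolin 1 and 3 stood only just above control 1. The log2 fold change was 0.81 with a standard error of 0.30 (adjusted p = 0.1973, edgeR), and 0.484 without luteolin 2. Insl3 lies within Jak3 on the same strand, and 6.59% of the 150-base windows of Jak3 are shared with it.

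Jak2 serves the receptors for erythropoietin, growth hormone, GM-CSF and interferon gamma. It had 26.3, 38.7 and 55.7 TPM in the control group and 62.2, 43.1 and 55.6 TPM in the luteolin group. The control libraries differed more from one another than the group means did, and control 3 was level with luteolin 3. Its log2 fold change was 0.45, with a 95% interval from -0.20 to 1.10 (adjusted p = 0.4134, edgeR). It was 0.20 without control 1, 0.71 without control 3 and 0.583 without luteolin 2. Jak2 was the only one of the 9 genes for which luteolin 2 was the lowest library of its group.

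Of the 9 genes, the inhibitors Socs3 and Socs1 had the largest differences. Socs3 (chr11:117966079-117970047), which blocks gp130 and G-CSF receptor signalling and is itself a STAT3 target, had 51.3, 36.0 and 30.4 TPM in the control group and 126.5, 180.7 and 80.7 TPM in the luteolin group. The lowest luteolin library exceeded the highest control library by a wide margin. The fold was 3.4, a log2 fold change of 1.76 with a standard error of 0.36 and a 95% interval from 0.92 to 2.61 (unadjusted p = 0.001702, adjusted p = 0.06649, edgeR). Socs3 passed the threshold of the study with and without luteolin 2, where the log2 fold change was 1.42, and in all 16 alternative settings, whose adjusted p ranged from 7.427e-05 to 0.2786.

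Socs1 (chr16:10782240-10785536), which binds JAKs directly and limits interferon signalling, was the least abundant of the 9 and rests on counts of 425, 324 and 134 in the control group and 497, 1444 and 478 in the luteolin group. Its levels were 5.37, 4.22 and 1.90 TPM and 7.08, 14.3 and 6.59 TPM. Luteolin 1 and 3 lay a little above control 1, and luteolin 2 lay well above all others. The log2 fold change was 1.32 with a standard error of 0.52 (adjusted p = 0.2171, edgeR). Without luteolin 2 it was 0.843 and no longer past the threshold of the study. That call was also lost under voom (0.839), and without luteolin 2 when an offset for base composition was added (0.887). It was lost too without control 3 (0.98) and without control 2, where the log2 fold change was not smaller (1.39).

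Cish, an inhibitor induced by STAT5 that acts at the interleukin 2 and erythropoietin receptors, had 21.5, 13.3 and 13.5 TPM in the control group and 13.2, 28.0 and 17.6 TPM in the luteolin group. The groups overlapped fully, and luteolin 1 was level with the lowest control libraries. Its log2 fold change was 0.33, with a 95% interval from -0.51 to 1.17 (adjusted p = 0.6674, edgeR), and it was 0.20 without control 2 or control 3 and -0.045 without luteolin 2. Cish has a neighbour on the opposite strand, Gm17041, with which 6.89% of its 150-base windows are shared.

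The spread within each group varied with the base composition of the genes. This was not particular to these families. Each library's difference from the mean of all libraries, in log2 CPM, was also correlated with GC content over all tested genes. The Spearman correlation was 0.43, -0.17 and -0.53 in control 1, 2 and 3. In luteolin 1, 2 and 3 it was -0.18, 0.44 and -0.36. Control 1 was higher than the mean of the other control libraries for Socs1 (by 0.91 on the log2 scale), Cish (0.67) and Socs3 (0.62), whose transcripts have 58.8%, 56.4% and 58.7% G and C. It was lower for Jak2 (-0.83), the member with the least G and C (44.3%). Across the 18 family genes this difference and the GC content had a Pearson and a Spearman correlation of 0.91, both across genes that share the same libraries and given without a test. For luteolin 2 against the other luteolin libraries the correlations were 0.73 and 0.66. Luteolin 2 was higher for 8 of the 9 genes, by 1.14 for Socs1, 0.95 for Cish and 0.91 for Socs3 and Stat5a, by 0.03 for Stat6, and lower for Jak2 (-0.38).

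**Figure D3:**
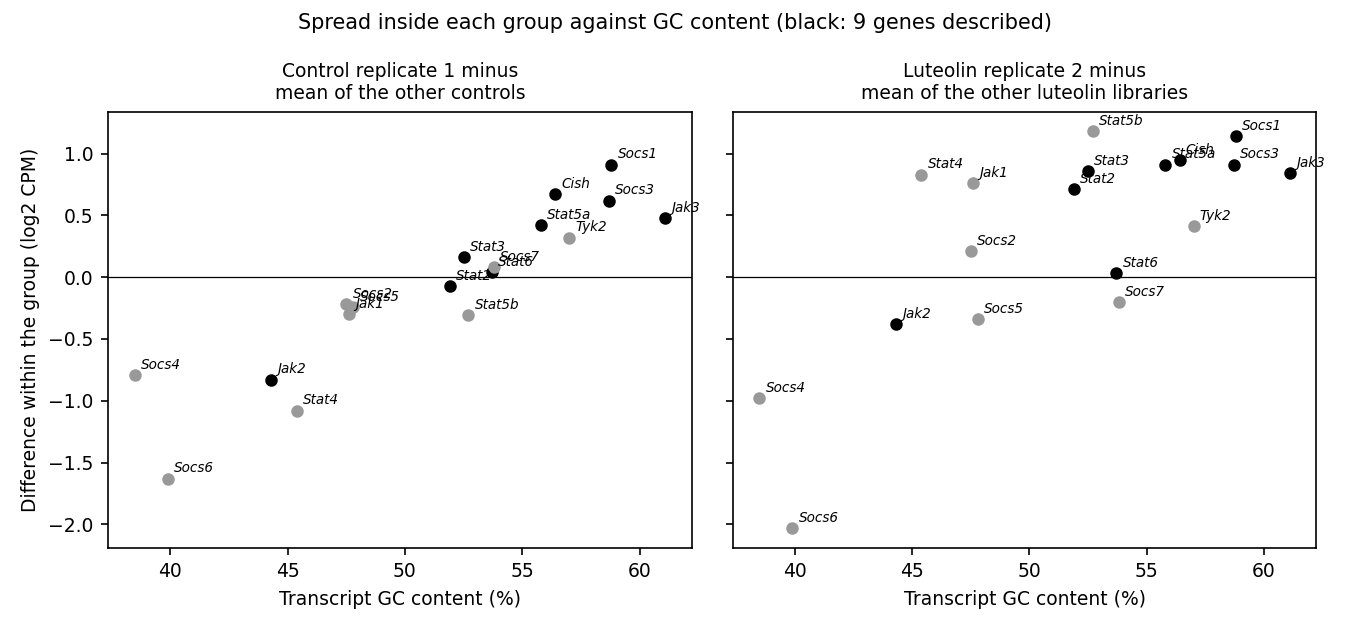
Difference of control 1 from the other control libraries and of luteolin 2 from the other luteolin libraries, in log2 units, against the GC content of the longest coding transcript in percent, for the 18 family genes. Genes with more G and C tend to lie higher, more clearly for control 1 than for luteolin 2, where Stat4 (45.4%) lies at 0.83 and Stat6 (53.7%) at 0.03.

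An offset for GC content and transcript length was therefore added to the edgeR fit. Socs3 then had a log2 fold change of 1.53, Socs1 of 1.10, Stat3 of 0.753, Stat2 of 0.685, Jak3 of 0.58, Jak2 of 0.49, Stat5a of 0.339, Cish of 0.119 and Stat6 of -0.355. With the same offset and without luteolin 2, Socs3 was at 1.43, Socs1 at 0.887, Stat3 at 0.535, Stat2 at 0.525, Jak3 at 0.512, Jak2 at 0.489 and Stat5a at 0.181, while Cish was at -0.038 and Stat6 at -0.244. In that fit Stat2, Stat3, Jak3 and Socs3 were higher at an adjusted p under 0.05, beside 5.18% of all genes tested in it. The offset moved the median of all genes to -0.089, and to -0.057 without luteolin 2.

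The remaining genes of the families bracketed these values. None of the other 9 passed the adjusted threshold, while 4 had an unadjusted p under 0.05 (edgeR) and DESeq2 gave an adjusted p of 3.158e-05 for Stat5b, 0.004166 for Jak1 and 0.005515 for Stat4, all higher. Lower calls were made for Tyk2 under voom (adjusted p = 0.0378) and with the GC and length offset (0.03669, and 0.03234 without luteolin 2), and for Socs5 under voom (0.02228). Stat5b had 3.28, 3.59 and 4.55 TPM in the control group and 11.0, 22.1 and 9.58 TPM in the luteolin group (log2 fold change 1.96, adjusted p = 0.06347, edgeR). Without luteolin 2 its log2 fold change was 1.46 (adjusted p = 0.03148, edgeR). It was higher in every luteolin library, by more than any of the 4 member STATs on average. Stat4, the interleukin 12 transducer, had a log2 fold change of 1.84 (adjusted p = 0.1169, edgeR) and of 1.53 without luteolin 2, and 22.8% of its windows are shared with the transcript Gm28177.

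Jak1, the kinase shared by interferon, gp130 and common gamma chain receptors, had 22.7, 23.5 and 32.8 TPM in the control group and 46.2, 72.8 and 44.1 TPM in the luteolin group (log2 fold change 1.10, adjusted p = 0.09572, edgeR). Its luteolin libraries were all above its control libraries. Tyk2 (-0.30) and the less studied SOCS genes had values near or under 0, with log2 fold changes of -0.43 for Socs5, -0.28 for Socs7, -0.20 for Socs2, -0.14 for Socs4 and -0.04 for Socs6. The median log2 fold change of the other 9 family genes was -0.14, but 0.05 without control 3 and 0.13 without luteolin 2. Of these 9 genes 3 were higher at the threshold of the study (Stat4, Stat5b and Jak1) and 0 lower. Jak1 lost this call without luteolin 2 (log2 fold change 0.81, or 0.74 with the GC and length offset as well), without control 1 (0.96) and under voom (0.91), which left 2 of the 9. Socs5 and Socs7, like Stat6, were lower in every luteolin library.

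The balance between related genes was given by the ratio of their TPM values in each library, for 4 pairs chosen after the values were seen and so without a test. Stat5b to Stat5a was 0.208, 0.294 and 0.407 in the control group and 0.664, 0.844 and 0.732 in the luteolin group. Jak1 to Tyk2 was 0.282, 0.357 and 0.522 in the control group and 0.875, 1.14 and 0.908 in the luteolin group. Socs3 to Stat3 was 1.32, 1.08 and 0.851 in the control group and 2.29, 2.02 and 1.65 in the luteolin group. In each of these the luteolin libraries lay above all control libraries, and luteolin 1, not luteolin 2, had the highest ratio of Socs3 to Stat3. Control 1 had the lowest ratio of Jak1 (47.6% G and C) to Tyk2 (57%), and the part of base composition in the ratios was not tested. By contrast, Cish to Stat5a ranged from 1.09 to 1.36 in the control group and from 0.794 to 1.35 in the luteolin group, so the groups overlapped.

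**Figure D4:**
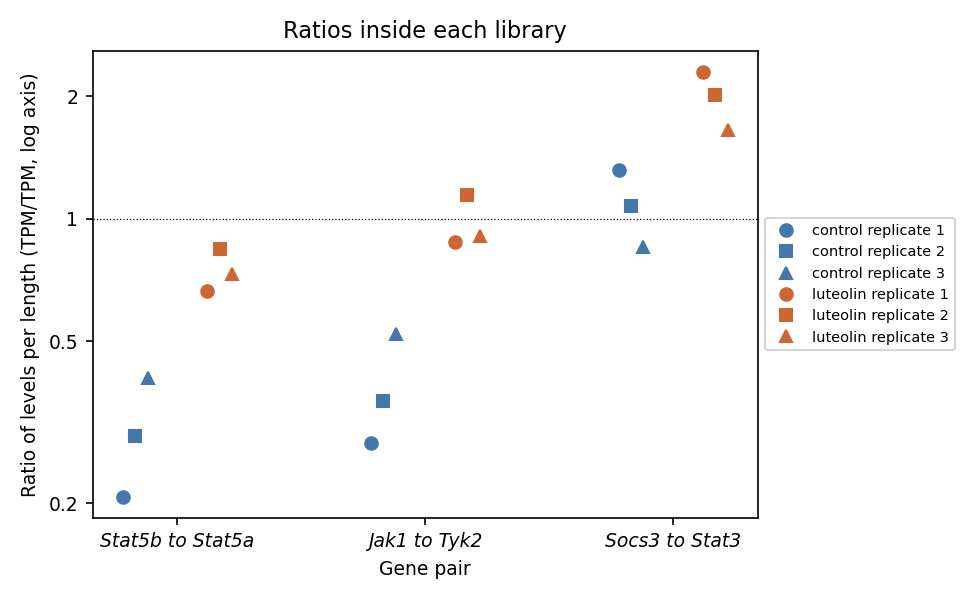
Ratio of the TPM values of the 3 gene pairs whose groups are separate, in each library, on a log axis, with points for the control and the luteolin libraries. The luteolin points of Stat5b to Stat5a start at 0.664, above the highest control point at 0.407, and those of Jak1 to Tyk2 and Socs3 to Stat3 also lie above all control points.

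The genes around the 9 in the pathway were read from lists of receptors, ligands, inhibitors and known STAT targets. Over all tested genes 11.3% were higher and 1.52% lower at the threshold of the study, and 1.34% were higher at the adjusted threshold, and the counts of each list stand beside these shares. Of 35 tested receptor chains that signal through JAKs, 15 were higher at the threshold of the study and 0 lower, 4 passed the adjusted threshold and the median log2 fold change was 1.00. Without control 1, control 2, control 3 or luteolin 1 no gene of the whole table passed the adjusted threshold, so every gene said here to have risen loses that call then (1907 to 2462 genes had an unadjusted p under 0.05, edgeR). Csf2rb, the beta chain of the GM-CSF, interleukin 3 and interleukin 5 receptors, rose from 60.5, 50.6 and 51.3 CPM to 133, 171 and 124 CPM (log2 fold change 1.40, adjusted p = 0.03308, edgeR). Its near copy Csf2rb2 rose by a log2 fold change of 1.46 (adjusted p = 0.04373, edgeR), and reads of the pair may be split between them. Il2rg, the common gamma chain that carries JAK3, rose by 0.95 on the same scale (adjusted p = 0.04803, edgeR), and the interleukin 2 receptor alpha chain Il2ra by 2.22 (adjusted p = 0.0487, edgeR). Il6st (gp130), the receptor with the highest mean count, had a log2 fold change of 0.37.

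Of 21 tested cytokine ligands of these receptors, 10 were higher at the threshold of the study and 0 lower, and 0 passed the adjusted threshold (12 had an unadjusted p under 0.05, edgeR). Without luteolin 1, or with the replicate number as a block, 6 were higher at the threshold of the study. Osm, an activator of gp130, had 3.08, 2.53 and 2.30 CPM in the control group and 28.7, 12.7 and 8.62 CPM in the luteolin group (log2 fold change 2.66, adjusted p = 0.05468, edgeR). Ifng had 0.157, 0.618 and 0.202 CPM in the control group and 4.77, 2.96 and 2.52 CPM in the luteolin group. Both ligands were low in the control tumours and higher in each luteolin library. Il12b differed by a log2 fold change of 2.72, whereas Lif, the ligand with the highest mean count, was lower in every luteolin library, at -0.52.

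Of 13 inhibitors outside the SOCS family, 1 was higher at the threshold of the study, beside 11.3% of all tested genes. It was the phosphatase and pan-leukocyte gene Ptprc (log2 fold change 1.16, adjusted p = 0.06385, edgeR). The median of the list was 0.29, but 0.08 with the GC and length offset and 0.11 with that offset without luteolin 2. Cblb was at 0.66, Ptpn6 at 0.71 and Ptpn11, with the highest mean count, at -0.32. No gene of this list passed the adjusted threshold, while 5 had an unadjusted p under 0.05 (edgeR), beside 20.5% of all tested genes. The count at the threshold of the study was 0 without control 1 and 2 without luteolin 2.

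The target lists had medians from 0.89 to 1.25. Of 20 tested interferon targets, genes answered through STAT2 and its relatives, 12 were higher at the threshold of the study and 0 lower, and the 3 past the adjusted threshold were the guanylate-binding proteins Gbp3 (log2 fold change 1.26, adjusted p = 0.03308, edgeR) and Gbp5 (1.97) and the antiviral gene Oasl2 (1.37). Gbp5 rose from 10.1, 17.7 and 15.4 CPM to 58.8, 66.4 and 42.7 CPM. The interferon factor Irf1, with the highest mean count, differed by only 0.27. The list thus held genes with little difference beside strongly changed ones.

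Of 22 STAT3 targets 8 were higher at the threshold of the study and 0 lower, with a median of 0.89, and 5 were higher with the GC and length offset without luteolin 2. The acute phase gene Saa3 rose from 3.36, 3.68 and 6.59 CPM to 282.5, 275.9 and 47.3 CPM (log2 fold change 5.48, adjusted p = 0.03316, edgeR). Fos was at 1.75 and the interleukin 4 receptor Il4ra at 0.94, while the cyclin Ccnd1, with the highest mean count, was at -0.20. Saa3 was far higher in luteolin 1 and 2 than in luteolin 3.

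Of 15 STAT5 targets 7 were higher at the threshold of the study and 0 lower, with a median of 1.01. Without control 2, without luteolin 2 and under voom 4 were higher. The cytotoxic granule gene Gzmb rose by a log2 fold change of 2.86 (adjusted p = 0.03308, edgeR), the cyclin Ccnd2 by 1.65 and Il2ra as given above. Of 16 tested STAT6 targets 8 were higher and 2 lower at the threshold of the study, with a median of 1.25. Without control 3, 5 were higher, and without luteolin 3, 4 were lower, while 1 was lower without any one of the control libraries or luteolin 1. The transglutaminase Tgm2 rose from 118, 82.5 and 92.8 CPM to 374, 418 and 361 CPM (log2 fold change 1.98, adjusted p = 0.02915, edgeR), and Pdcd1lg2, the second ligand of PD-1, by 1.57. The eotaxin Ccl11 was at 2.19 and the mannose receptor Mrc1, with the highest mean count, at 0.74. The 2 lower targets, named after their values were seen, were the chemokine Ccl17 (-1.82) and the macrophage lectin Mgl2 (-1.32). Stat6 itself was thus lower in each luteolin library while its listed targets differed in both directions. Several target genes stand in more than 1 list, and many are also marker genes of immune cells.

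**Figure D5:**
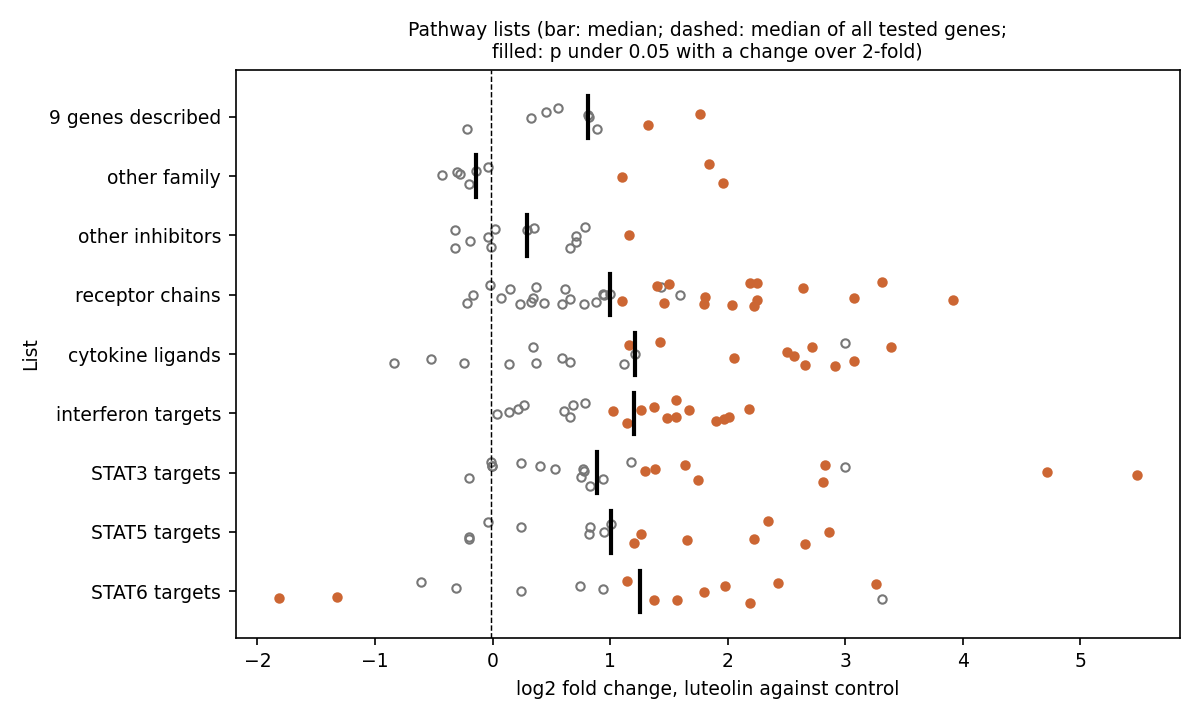
Log2 fold change of each tested gene of the pathway lists, with the genes of each list on a line of their own, a bar at the median and filled points past the threshold of the study. The medians lie between -0.14 for the other family genes and 1.25 for the STAT6 targets, against -0.01 for all tested genes.

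Markers of other cell types moved with the groups. The summed level of 4 leukocyte markers was 175, 174 and 224 CPM in the control group and 399, 515 and 384 CPM in the luteolin group, with Laptm5 the highest by CPM (likewise each marker given with a list in the sentences that follow) and 3 of 4 higher at the threshold of the study. The 5 T cell markers (Cd4) summed to 8.76, 11.5 and 10.8 CPM and to 34.4, 61.8 and 35.4 CPM, and all 5 were higher. The 3 natural killer cell markers (Klrk1) summed to 2.32, 4.32 and 5.60 CPM and to 13.5, 14.7 and 14.4 CPM, and all 3 were higher. These lymphoid lists and the leukocyte list were higher in every luteolin library.

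The 5 neutrophil markers, led by the G-CSF receptor Csf3r, summed to 17.2, 16.5 and 19.1 CPM in the control group and to 163, 179 and 70.9 CPM in the luteolin group, with 4 of 5 higher at the threshold of the study. Csf3r alone made up 14.8, 12.0 and 16.2 CPM of the control sums. The neutrophil marker not called, Ly6g, went the other way on few counts. It had counts of 13, 36 and 12 in the control group and 0, 9 and 33 in the luteolin group (log2 fold change -0.57). Dendritic cell markers (Itgax, 4 of 4 higher) summed to 96.4, 92.1 and 91.7 CPM and to 153, 230 and 261 CPM. Macrophage markers (C1qa, 1 of 5 higher) summed to 681, 607 and 697 CPM and to 1011, 1250 and 1205 CPM. The myeloid sums were thus also higher in every luteolin library, although few single macrophage genes passed the threshold. Mast cell markers (Mcpt4, 4 of 4 higher) summed to 5.98, 11.4 and 8.76 CPM and to 46.8, 69.3 and 22.3 CPM, and B cell markers (Cd79a, 1 of 3 higher) to 1.60, 3.06 and 1.69 CPM and to 3.67, 12.7 and 6.21 CPM.

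Markers of the stroma and skin moved as well. Fibroblast markers (Col1a1, 3 of 4 higher) summed to 1013, 816 and 808 CPM in the control group and to 2208, 3122 and 1306 CPM in the luteolin group. Endothelial markers (Pecam1, 2 of 3 higher) summed to 72.3, 73.4 and 87.2 CPM and to 140, 226 and 89.2 CPM. Keratinocyte markers (Krt14) summed to 3.91, 4.28 and 3.23 CPM and to 341, 7745 and 14.2 CPM, and Krt14, Krt5 and Krt1 had at most 3 counts in every control library. Skin genes were therefore far more abundant in luteolin 2, the library in which 7 of the 9 signalling genes were highest.

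No marker gene of these lists was at 0 in every library. The 3 proliferation markers (Top2a) summed to 1438, 1853 and 2381 CPM in the control group and to 1370, 891 and 1654 CPM in the luteolin group, with 0 of 3 called. Of these, Mki67 had 558.8, 701 and 867.9 CPM in the control group and 481.7, 349 and 535.6 CPM in the luteolin group. Its luteolin libraries all lay below its control libraries (log2 fold change -0.64, adjusted p = 0.1866, edgeR), as for 12.9% of all tested genes. The groups of Top2a and Ccnb1 overlapped. Of the 5 tested hepatocyte and hepatoma markers 0 were called, and their sum was 62.7, 131 and 44.7 CPM and 173, 68.9 and 72.2 CPM. The part of these cell types in the levels of the JAK, STAT and SOCS genes was not tested.

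The genes whose log2 CPM most resembled the mean pattern of the 9 over the 6 libraries were Gjb5, Pdgfb, Rpl10a, H2-D1 and Unc5b, with Pearson correlations from 0.9982 to 0.9995 among 12917 named genes. These points share the same libraries, and luteolin 2 is the highest for each. The mean standardized level of the 9 genes was -0.23, -0.44 and -0.74 in control 1, 2 and 3 and 0.11, 1.19 and 0.10 in luteolin 1, 2 and 3. The gap junction gene Gjb5 had 2.40, 1.75 and 0.992 CPM in the control group and 4.96, 32.0 and 4.55 CPM in the luteolin group, and the class I histocompatibility gene H2-D1 had 598, 554 and 454 CPM and 712, 1347 and 714.5 CPM.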

How the data were processed

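RNA-seq libraries of 3 control and 3 luteolin (200 mg/kg) H22 tumours were analysed, grouped by their labels. The authors deposited whole-number expression values per gene symbol, which were analysed as estimated counts: 44.8% of the values from 1 to 40 are multiples of 4, so 1 unit need not be 1 read pair. The submitters' processing notes name bcl2fastq 2.0, HISAT2, StringTie and DESeq2 and the builds rn6 and mm39, without their roles. The annotation is not given in the sources used here, nor is whether strand was used in counting. The labels name an RNeasy and a SMARTer kit, the methods Trizol and TruSeq. No columns of the table were left out.

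Counts were compared in R 4.3.3 with edgeR 4.0.16 (TMM, filterByExpr, quasi-likelihood test, two-sided, no covariates) over 14963 of 21720 genes, which hold 99.83% of all counts, with Benjamini-Hochberg adjustment. CPM are per TMM-normalized total, with 3 counts worth 0.0356 to 0.049 CPM. TPM use the longest coding transcript of GENCODE M21 (GRCm38), found for 21053 symbols, and gene positions come from the same annotation. Log2 CPM values use a prior count of 2, and fold changes are the fitted coefficients of edgeR with its default prior. The fit was tested on simulated data.

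The members and gene lists were chosen with earlier results of these data known. Named are the 9 genes, all other family genes, in each list the 3 genes with the smallest p and the one with the highest mean count, the leading markers, and the 5 genes most correlated with the mean z score of the 9. Alternatives were DESeq2 1.42.0, voom of limma 3.58.1 with quality weights, RLE and upper-quartile normalization, no filter, a minimum of 10 counts, values divided by 4, a block for the replicate number, and leaving out 1 library at a time. Offsets for GC content and length (splines with 4 and 3 degrees of freedom, 14635 genes) were added after the data had been seen. Genes that the rule selects but that are not analysed here were left out of the lists.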

Additional observations from a re-analysis of the deposited data

How the results depend on the processing

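Of the 9 genes, Socs3 passed the threshold of the study in all 16 alternatives, and its adjusted p was under 0.05 in 7 of them. Where a setting changed a count or a sign, the cause was not tested. At the threshold of the study, 1 of the 9 genes was higher under voom and 1 with the GC and length offset without luteolin 2, and 1 to 3 with each library left out in turn. All tested genes at that threshold numbered 1103 higher with the offset without luteolin 2, and 498 lower under voom (140 to 305 lower with each library left out). At an adjusted p under 0.05, 3 of the 9 genes were higher under DESeq2, 5 under voom (and 1 lower), 1 with a minimum of 10 counts, 1 with values divided by 4, 2 with the GC and length offset, 4 with the offset without luteolin 2 and 0 to 1 with each library left out. Of all tested genes, those higher at this threshold were 1543 under DESeq2, 1886 under voom, 345 with a minimum of 10 counts, 327 with values divided by 4, 710 with the offset, 766 with the offset without luteolin 2 and 0 to 276 with each library left out. Those lower were 415, 1311, 47, 46, 350, 455 and 0 to 36 in the same order.

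The replicate numbers of the titles were not taken as pairs in the main fit. The correlations of same-numbered control and luteolin deviations were -0.196, -0.092 and 0.063, and not every library correlated best with its own number. Since the libraries also differed with GC content, these correlations cannot decide whether the samples were paired. With the replicate number as a block, 34 genes were higher and 1 lower at an adjusted p under 0.05, 0 of the 9 genes among them (edgeR), and 6 cytokine ligands were higher at the threshold of the study, with Socs1 and Socs3 still past it.

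The log2 fold change of Cish was -0.0384 with the offset without luteolin 2 and -0.04493 to 0.56 with each library left out. That of Socs6 was 0.004806 under upper-quartile normalization, 0.31 under voom, 0.03876 with the offset, 0.36 with the offset without luteolin 2 and -0.43 to 0.40 with each library left out, as it was -0.43 to 0.01024 for Socs2 and -0.42 to 0.13 for Socs4. The median of the other family genes was -0.28 to 0.13 with each library left out. At the threshold of the study, the offset without luteolin 2 left 0 other inhibitors, 5 STAT3 targets and 4 STAT5 targets higher, and voom 4 STAT5 targets. With each library left out, 0 to 2 other inhibitors, 6 to 11 cytokine ligands, 4 to 7 STAT5 targets and 5 to 9 STAT6 targets were higher, and 0 to 1 ligands and 1 to 4 STAT6 targets lower.

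The lowest counts behind any of the 9 genes are those of Socs1, from 134 to 1444. Since 1 unit need not be 1 read pair, counting error was not derived from the totals, and each group has 3 libraries.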
